A study of Saccharomyces cerevisiae with 6 samples.

Results

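The comparison described here is wild-type baker's yeast in mannose medium against wild-type yeast in glucose medium. It uses the 3 wild-type libraries of the 6 in the series: glucose replicate 1, glucose replicate 2 and 1 mannose library, chosen by the genotype and sugar in their labels. The cells are Saccharomyces cerevisiae BY4741, a MATa laboratory strain that lacks LEU2, MET17 and URA3 and carries a partly deleted HIS3. Per the labels they spent 3 h in rich medium of 2% peptone and 1% yeast extract with either 2% glucose (YPGlc) or 2% mannose (YPMan), so the sugar is the named difference between the groups. The other 3 libraries come from a deletion of CYC8 (cyc8[delta]::kanMX4, a corepressor gene) in the same background and enter here only through the shared estimate of spread and a few values set beside those of wild type. Cells were collected on membrane filters, frozen in liquid nitrogen and lysed in a buffer with cycloheximide, and total RNA was depleted of ribosomal RNA before stranded libraries were made. The labels do not say whether the glucose replicates are separate cultures, so p-values measure the spread between these libraries, which may be technical.

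Yeast takes up glucose and mannose through the same family of hexose transporters, and hexokinases phosphorylate both. Mannose 6-phosphate is then either turned by Pmi40 into fructose 6-phosphate, which feeds glycolysis, or turned by Sec53 and Psa1 into GDP-mannose, the sugar donor for protein glycosylation. Abundant glucose represses genes for respiration, storage carbohydrates and other carbon sources, through the kinase Snf1 and the repressor Mig1, while the sensors Snf3 and Rgt2 act on the repressor Rgt1 to choose which hexose transporters are made.

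Depth was 37954565 and 44084216 counts in glucose and 39015900 in mannose, so a count of 0 allows up to 0.0681 to 0.0790 CPM (counts scaled to one common library total, which TMM factors then adjust), a limit that covers counting error only. All levels are given as CPM after TMM scaling, and all changes as log2 of mannose over glucose ± standard error (SE). With 1 mannose library, each change was read in 2 ways. The test was edgeR's quasi-likelihood F test with Benjamini-Hochberg adjustment, which assumes that the mannose library varies like the glucose pairs. The second reading, with no test, was whether mannose lay at least 2-fold above both glucose libraries or at least 2-fold below both. No wild-type library held a count of LEU2, MET17 or URA3, and HIS3 stood at 43.5, 47.8 and 32.7 CPM (glucose 1, glucose 2, mannose). CYC8 was present at 200, 207 and 197 CPM and was not called, but stood at −0.26 (adjusted p = 0.0101 in edgeR) once trends on base composition and length were removed. Of the MATa genes, the alpha-factor receptor gene STE2 stood at 201, 197 and 126 CPM per kb of coding length. The short pheromone gene MFA1 stood at 23.2, 34.7 and 22.9 CPM per kb (2.58, 3.85 and 2.54 CPM). Of the other mating type, the pheromone gene MF(ALPHA)1 stood at 0.24, 0.20 and 0.13 CPM, but SAG1 and STE3 were not absent. SAG1 stood at 8.13, 8.34 and 6.75 CPM per kb and STE3 at 2.05, 2.20 and 2.02 CPM per kb.

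Of 6146 reading frames tested, 1263 (20.5%) were called higher in mannose and 1037 (16.9%) lower at an adjusted p under 0.05, 2300 (37.4%) in all. Of these 133 (2.16%) were at least 2-fold higher as fitted and 116 (1.89%) at least 2-fold lower. Mannose lay at least 2-fold above both glucose libraries for 128 frames (2.08%) and at least 2-fold below both for 125 (2.03%). Every count of called list members below is to be read beside the shares of 20.5% higher and 16.9% lower. Among the 4755 frames with at least 10 CPM in the higher group, no frame differed 1.5-fold between the glucose replicates. In the same 4755 frames mannose lay 1.5-fold above both replicates for 250 and 1.5-fold below both for 190. Their median absolute log2 ratio was 0.07 between the glucose replicates, and 0.21 and 0.20 between mannose and each replicate. Counts of the glucose pair differed by more than sampling noise (chi-square per degree of freedom 11.8), so they were kept as 2 samples. In the cyc8 deletion 4746 frames (77.2%) were called for mannose against glucose, and the test of the difference between the genotypes called 3943 (64.2%). In bulk RNA, fewer cells with a transcript and less of it per cell cannot be told apart.

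**Figure D1:**
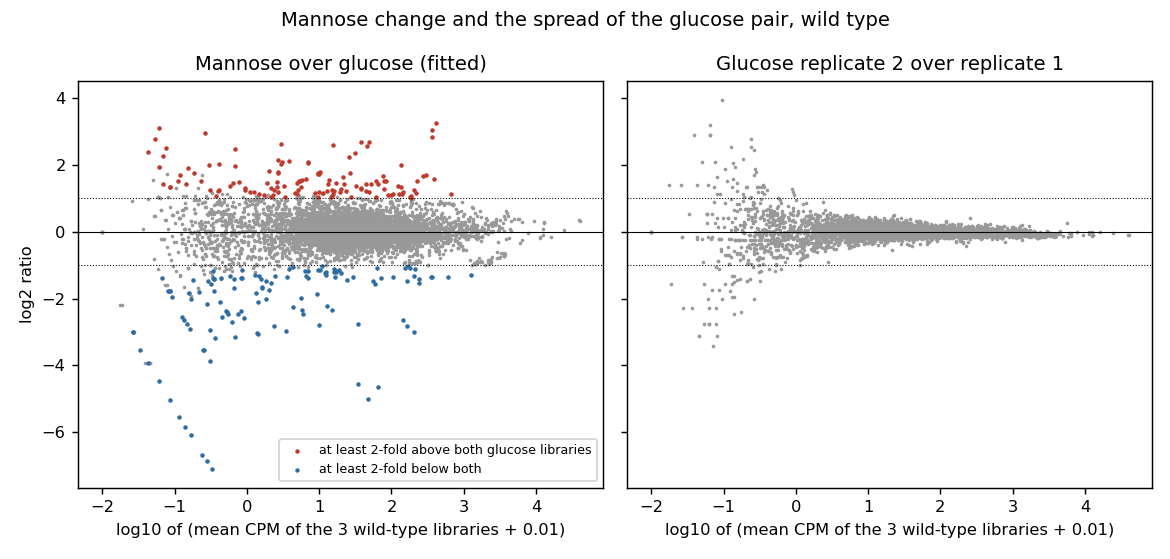
Log2 ratio of each tested reading frame against its mean level (log10 of mean CPM plus 0.01), for mannose over glucose as fitted (left) and for glucose replicate 2 over replicate 1 (right). Dotted lines mark 2-fold; colours mark the 128 frames at least 2-fold above both glucose libraries and the 125 at least 2-fold below both. Above 10 CPM the glucose pair stays within 1.5-fold, while mannose reaches several-fold in both directions.

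Hexose transporter transcripts moved in both directions, with HXT7, HXT6, HXT4 and HXT2 called higher and HXT1, HXT5 and HXT3 called lower. HXT7, a high-affinity hexose transporter (YDR342C, chromosome IV, 1154216 to 1155928, minus strand, 1 coding exon, build R64, which is sacCer3), stood at 106 and 110 CPM in glucose and 1033 CPM in mannose. This was the largest rise of any gene that met the naming rule, at 3.25 ± 0.10 (edgeR, adjusted p = 2.05e-47). Its neighbour HXT6, a near-identical high-affinity transporter, stood at 104 and 107 CPM in glucose and 882 CPM in mannose (3.06 ± 0.10). The 2 frames are so alike that reads may have been shared between them, and their separate values are uncertain.

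HXT2, a high-affinity transporter named after its values were seen, stood at 173 and 175 CPM in glucose and 565 CPM in mannose (1.70 ± 0.10). HXT4, another transporter of low glucose, went from 11.9 and 10.8 CPM to 53.7 CPM (2.25 ± 0.11). The low-affinity transporters moved the other way. HXT1, the transporter of high glucose (YHR094C, chromosome VIII, 290913 to 292625), stood at 213 and 193 CPM in glucose and 32.4 CPM in mannose, a fall of −2.65 ± 0.11 (edgeR, adjusted p = 5.67e-39). HXT3, also of low affinity, fell less, from 522 and 504 CPM to 383 CPM (−0.42 ± 0.10). HXT5, a transporter made in slow growth, fell from 9.13 and 7.45 CPM to 3.26 CPM (−1.34 ± 0.16).

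Per kilobase of coding length, the order of the transporter levels differed between the media. In glucose HXT3 led at 301 CPM per kb, followed by HXT1 at 118 and HXT2 at 107, with HXT7 at 63.2 and HXT6 at 61.6, whose replicate ranges overlap. In mannose HXT7 led at 603 CPM per kb, followed by HXT6 at 515, HXT2 at 347 and HXT3 at 225, with HXT1 at 18.9. Of the 17 hexose transporter genes measured (the HXT genes of the reference and the galactose permease gene GAL2), 4 were called higher, 3 lower and 10 neither, shares near those of all frames (20.5% and 16.9%). Of the 7 called members all but HXT3 also differed at least 2-fold from both glucose libraries. Summed over the 17, the level was 1145 and 1112 CPM in glucose and 2958 CPM in mannose.

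Of the 8 genes that read glucose and set these transporters 2 were called higher and 2 lower, near the background of 20.5% and 16.9%. MTH1, a corepressor that acts with Rgt1 at hexose transporter promoters, stood at 5.51 and 5.96 CPM in glucose and 34.6 CPM in mannose, a rise of 2.59 ± 0.11 (edgeR, adjusted p = 2.84e-37). Its relative STD1 fell from 41.4 and 41.0 CPM to 25.7 CPM (−0.68 ± 0.11), so the related pair moved in opposite directions. The sensor of low glucose, SNF3, rose from 11 and 10.3 CPM to 16.7 CPM (0.64 ± 0.12). The sensor of high glucose, RGT2, was not called at −0.10 ± 0.10 (adjusted p = 0.465), and neither was RGT1 at −0.04 ± 0.09 (adjusted p = 0.757). GRR1, of the ubiquitin ligase that removes Mth1, fell by 0.55 on the log2 scale, and by 0.27 once trends on base composition and length were removed.

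The 3 Mig repressors differed from each other. MIG1, the main repressor of glucose repression, stood at 48.8 and 50.5 CPM in glucose and 69.4 CPM in mannose (0.48 ± 0.09). MIG2 fell from 30.9 and 33.5 CPM to 23.7 CPM (−0.44 ± 0.10). MIG3 was among the largest falls, from 20.7 and 21.0 CPM to 4.09 CPM (−2.35 ± 0.15; edgeR, adjusted p = 2.11e-25). Of the 12 genes for Mig repressors and the Snf1 kinase and its partners, 2 were called higher and 3 lower, near the background.

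Of the 4 genes for hexose phosphorylation, 3 were called higher and 0 lower, beside 20.5% and 16.9% of all frames. HXK1, the hexokinase of low glucose, stood at 117 and 123 CPM in glucose and 862 CPM in mannose (2.84 ± 0.10; edgeR, adjusted p = 4.41e-43). GLK1, a glucokinase, rose from 147 and 165 CPM to 497 CPM (1.67 ± 0.10); its frame overlaps another reading frame. EMI2, a GLK1 relative, rose from 31.1 and 34.1 CPM to 89.0 CPM (1.45 ± 0.10). HXK2, the main hexokinase in glucose, stood at 1520, 1470 and 1343 CPM and was not called (−0.15 ± 0.10, adjusted p = 0.245; −0.24 with an adjusted p of 0.0362 once the composition and length trends were removed).

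Of the 7 genes of mannose entry and GDP-mannose supply 3 were called higher and 0 lower, beside 20.5% and 16.9% of all frames. No member was 2-fold above both glucose libraries. PMI40, the isomerase that links mannose to glycolysis, stood at 231 and 216 CPM in glucose and 312 CPM in mannose (0.48 ± 0.09; edgeR, adjusted p = 5.79e-06). SEC53, the phosphomannomutase, rose from 389 and 379 CPM to 496 CPM (0.37 ± 0.09). PSA1, which makes GDP-mannose, stood at 1084, 1076 and 1212 CPM and was not called (0.17 ± 0.10, adjusted p = 0.186). DPM1, which makes dolichol phosphate mannose, was called at 0.31 ± 0.09 but stood at 0.01 without the composition and length trends. In that fit 2 of the 7 were called higher, beside 19.9% of all frames fitted. The Golgi GDP-mannose carrier VRG4 was not called (0.18 ± 0.09, adjusted p = 0.110).

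**Figure D2:**
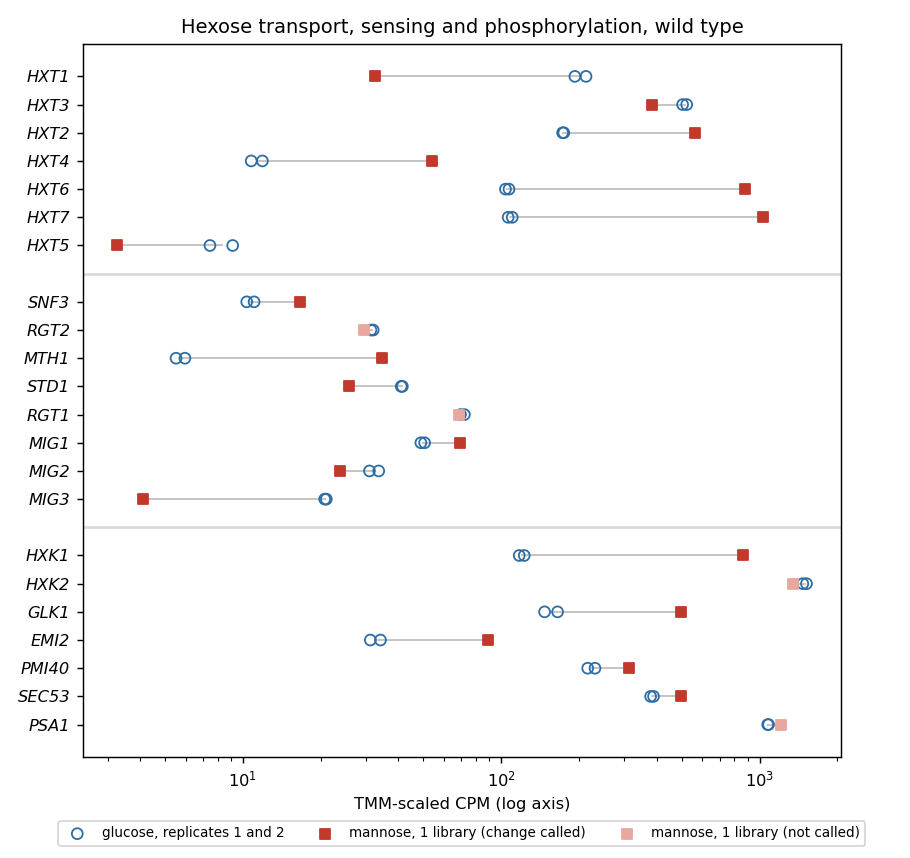
TMM-scaled CPM (log axis) of genes for hexose transport, sensing and repression, and phosphorylation and mannose use, with open circles for the 2 glucose replicates and a square for the mannose library (pale where the change was not called). HXT7, HXT6, MTH1 and HXK1 stand far to the right of their glucose pair and HXT1 and MIG3 far to the left, while PMI40 moves from 231 and 216 to 312 CPM.

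Activators of genes that glucose represses rose in 6 of 8 cases and fell in 1, beside 20.5% and 16.9% of all frames. HAP4, the limiting subunit of the Hap complex that activates respiratory genes, stood at 42.6 and 41.6 CPM in glucose and 113 CPM in mannose (1.42 ± 0.09; edgeR, adjusted p = 4.03e-25). CAT8, an activator of gluconeogenic genes, went from 10.7 and 11 CPM to 22.6 CPM (1.05 ± 0.11), and ADR1, an activator of alcohol and fatty acid use, stood at 0.80 ± 0.09. ERT1 fell by 0.50 on the log2 scale, and SIP4 was not called. The classical targets of full derepression barely moved. PCK1, the gluconeogenic carboxykinase, stood at 6.78, 6.36 and 8.08 CPM (0.30 ± 0.15, adjusted p = 0.119), and FBP1, fructose bisphosphatase, at 2.79, 1.94 and 2.90 CPM (adjusted p = 0.312); both were named after their values were seen. Of 11 genes for gluconeogenesis and the glyoxylate cycle only ICL1 was called, with a rise of 0.47 ± 0.11 (0.29 without the composition and length trends). Other targets of glucose repression rose in part. SUC2, invertase (named after its values were seen), stood at 53.2, 56.6 and 107 CPM (0.97 ± 0.10), and of 18 genes for sucrose, maltose, isomaltose and galactose use 11 were called higher and 1, GAL80, lower. The maltose genes MAL12, MAL32 and MAL33 rose by 1.53, 1.51 and 1.47 but stayed below 10 CPM, and MAL12 and MAL32 belong to a family of near-identical frames.

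Glycolytic genes stood almost level. Of 16 members 2 were called higher, the minor pyruvate kinase PYK2 (0.89 ± 0.10) and the regulatory kinase PFK26 (0.29 ± 0.11), and 0 lower, with a median of −0.10. Without the composition and length trends 2 were called higher and 9 lower, with a median of −0.28, so the count of falls depends on that processing. Among 15 genes for fermentation and acetate 6 were called higher and 1 lower, or 4 and 3 without those trends. Of all frames 20.5% were called higher and 16.9% lower, or 19.9% and 15.4% of those fitted without the trends. ALD4, the mitochondrial aldehyde dehydrogenase, had the largest rise of the 15 genes, from 68.0 and 67.3 CPM to 269 CPM (1.99 ± 0.10; edgeR, adjusted p = 3.14e-33).

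Genes for storage carbohydrates rose as groups. All 7 trehalose genes were called higher and 0 lower, with a median of 0.74, and of 15 glycogen genes 10 were called higher and 0 lower, with a median of 1.21, beside a median of 0.02 over all frames tested. GPH1, glycogen phosphorylase, stood at 17.4 and 17.5 CPM in glucose and 103 CPM in mannose (2.56 ± 0.11; edgeR, adjusted p = 6.99e-38). GSY1, a glycogen synthase, rose from 13.5 and 12.7 CPM to 67.4 CPM (2.36 ± 0.10), and GSY2, the other synthase, named after its values were seen, from 43.4 and 44.1 CPM to 140 CPM (1.68 ± 0.09). Synthesis and breakdown genes thus moved in the same direction. GAC1, a phosphatase subunit that activates glycogen synthase, rose from 1.01 and 1.13 CPM to 6.65 CPM (2.62 ± 0.18). In the trehalose group TSL1, a regulatory subunit of trehalose synthase, rose from 136 and 146 CPM to 401 CPM (1.51 ± 0.09). The catalytic genes TPS1 and TPS2 rose by 1.05 and 1.19, and NTH1 and NTH2, the neutral trehalases, by 0.74 and 0.36. No member of either group was called lower.

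Of 25 stress-induced genes 16 were called higher and 0 lower, with a median of 0.65. HSP12, a small membrane-associated stress protein (YFL014W, chromosome VI, 107256 to 107585), stood at 15.7 and 18.8 CPM in glucose and 111 CPM in mannose (2.68 ± 0.11; edgeR, adjusted p = 8.41e-39). OM45, of the mitochondrial outer membrane, rose from 5.13 and 5.56 CPM to 18.2 CPM (1.77 ± 0.12), and DDR2 from 1.17 and 1.73 CPM to 5.98 CPM (2.02 ± 0.20). The major chaperone HSP104 (named after its values were seen) did not follow them: it stood at 296, 314 and 328 CPM and was not called (0.10 ± 0.10, adjusted p = 0.439). A further 4 of the largest rises lie outside this group. TMA10 rose by 2.08 ± 0.13 and RTC3 by 1.75 ± 0.14, RGI1, of energy metabolism under respiration, by 2.05 ± 0.13, and the stress-induced repressor XBP1 by 1.78 ± 0.12, each from under 10 CPM in glucose.

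Promoters of the genes called at least 2-fold higher or lower differed in how often they held a short motif. The motif CCCCT, searched on both strands in the 250 bases before the start codon, is the core of the stress response element bound by Msn2 and Msn4. Of the 133 frames called at least 2-fold higher 119 have a promoter in the reference table, and of the 116 called at least 2-fold lower 91. The motif was found in 55 of the 119 (46.2%), in 11 of the 91 (12.1%) and in 1102 of all 5845 tested promoters (18.9%). Of the 25 stress-induced genes 17 held it, of the 7 trehalose genes 4 and of the 15 glycogen genes 5. It was not particular to these lists. Of the respiratory lists, 4 of 9 complex III, 3 of 9 complex IV, 7 of 17 ATP synthase and 6 of 15 tricarboxylic acid cycle promoters held it. In the hexose transporter list 3 of 17 did, and in the phosphate regulon 1 of 17. The related motif CCCCNC, of the type bound by Mig1, can overlap CCCCT. It was found in 32.8% of the 119 promoters, 8.79% of the 91 and 10.9% of all tested. These are descriptions of letters in a window, not of bound sites. Upstream regions differed somewhat in base composition, with a median of 35.6% GC for genes called higher, 32.4% for those called lower and 34.8% for all. The windows of HSP12 and TSL1 are shown because both hold the motif more than once. Each line gives bases 250 to 81 before the start codon, on the gene's strand, from the R64 reference, with CCCCT or its reverse complement AGGGG in capitals; HSP12 is chrVI:107006-107175 (plus strand) and TSL1 is chrXIII:70374-70543 (plus strand).

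HSP12: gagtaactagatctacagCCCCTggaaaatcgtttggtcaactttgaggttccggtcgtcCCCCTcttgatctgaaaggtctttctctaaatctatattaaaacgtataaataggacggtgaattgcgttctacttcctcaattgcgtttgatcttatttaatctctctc

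TSL1: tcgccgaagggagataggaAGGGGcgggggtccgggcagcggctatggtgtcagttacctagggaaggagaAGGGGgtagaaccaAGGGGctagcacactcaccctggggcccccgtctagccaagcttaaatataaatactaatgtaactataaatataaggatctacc

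In HSP12 the motif begins 232 and 190 bases before the start codon. TSL1 holds it on the opposite strand, with the first capital 231, 179 and 165 bases before the start codon.

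Respiratory genes of the nucleus rose. Of 15 genes of the tricarboxylic acid cycle 13 were called higher and 0 lower, with a median of 0.74, and all 7 genes for NADH dehydrogenases and cytochrome c were called higher (median 0.98). SDH1, a subunit of succinate dehydrogenase, stood at 46.9 and 49.2 CPM in glucose and 137 CPM in mannose (1.51 ± 0.09; edgeR, adjusted p = 1.85e-26). Its partner SDH2 rose from 26.8 and 24.3 CPM to 63.8 CPM (1.32 ± 0.10), and MDH1, mitochondrial malate dehydrogenase, from 93.0 and 88.6 CPM to 230 CPM (1.34 ± 0.09). NDI1, the internal NADH dehydrogenase, rose by 1.18 ± 0.09. In complex III 7 of 9 nuclear subunit genes were called higher, led by the cytochrome c1 gene CYT1, which went from 79.7 and 81.0 CPM to 206 CPM (1.36 ± 0.09). In complex IV 7 of 9 were called higher, led by COX6, from 28.6 and 25.5 CPM to 54.8 CPM (1.02 ± 0.10). Among ATP synthase genes and its regulators 13 of 17 were called higher. The inhibitor gene INH1 had the largest change of these, from 14.0 and 16.0 CPM to 50.8 CPM (1.76 ± 0.10), and the alpha subunit gene ATP1 rose from 503 and 456 CPM to 1060 CPM (1.15 ± 0.10). No nuclear member of these 5 groups was called lower. Outside them, PET9, the main ADP and ATP carrier, rose from 245 and 229 CPM to 707 CPM (1.58 ± 0.09). Its list of 17 genes for pyruvate dehydrogenase and mitochondrial carriers was mixed, with 11 called higher and 2 lower. The carrier gene AAC3 was among the lower, at 3.30, 3.96 and 2.36 CPM (−0.63 ± 0.21).

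The motif CCAAT, recognised by the Hap complex, was found in 8 of the 9 complex IV promoters, 15 of the 17 ATP synthase promoters, 7 of the 9 complex III promoters and 9 of the 15 tricarboxylic acid cycle promoters, beside 35.2% of all tested promoters. It was found in 42% of genes called higher by at least 2-fold and in 22% of those called lower. SDH2 is shown because it holds the motif on each strand within a few bases, in capitals as CCAAT and as its reverse complement ATTGG. The line gives bases 250 to 81 before the start codon on the gene's strand, chrXII:54012-54181 (minus strand, R64).

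SDH2: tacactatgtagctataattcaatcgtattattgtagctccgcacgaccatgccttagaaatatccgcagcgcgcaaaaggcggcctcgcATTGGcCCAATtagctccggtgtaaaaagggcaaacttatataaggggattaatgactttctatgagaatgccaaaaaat

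The motifs begin 160 and 154 bases before the start codon of SDH2.

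Transcripts of the mitochondrial genome moved against their nuclear partners. Of 23 mitochondrial reading frames tested, 17 were called lower and 0 higher, with a median of −1.46, and the same number lay at least 2-fold below both glucose libraries. ATP6, a subunit of ATP synthase (Q0085, mitochondrion, 28487 to 29266), stood at 70.6 and 69.6 CPM in glucose and 2.17 CPM in mannose, the largest fall of any gene that met the naming rule (−5.01 ± 0.23; edgeR, adjusted p = 4.97e-35). COB, cytochrome b, the only mitochondrial subunit of complex III, fell from 326 and 259 CPM to 36.1 CPM (−3.02 ± 0.12). The maturase frames BI2, BI3 and BI4 overlap COB and fell with it, at −4.56, −4.66 and −2.83, and AI3, which overlaps COX1, stood at −2.76. OLI1, a ring subunit of ATP synthase, fell from 340 and 276 CPM to 107 CPM (−1.53 ± 0.11), and COX3 from 227 and 187 CPM to 75.2 CPM (−1.46 ± 0.10). COX2, named after its values were seen, stood at 269, 201 and 199 CPM and was not called (−0.24 ± 0.11, adjusted p = 0.0894). The fall was thus uneven between mitochondrial genes, from 32.2-fold less ATP6 than the glucose mean to a COX2 level at the lower glucose replicate.

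Summed over the subunits measured, nuclear complex III went from 568 and 581 CPM to 1187 CPM while COB fell. Nuclear complex IV went from 238 and 250 CPM to 388 CPM, and its mitochondrial subunits COX1, COX2 and COX3 from 1314 and 1085 CPM to 572 CPM. Nuclear ATP synthase subunits went from 1885 and 1856 CPM to 3424 CPM, and ATP6 and OLI1 together from 411 and 346 CPM to 109 CPM. In each complex the nuclear sum rose and the mitochondrial sum fell. The glucose replicates were not equal for the mitochondrial frames either, with a median log2 ratio of −0.30 between replicate 2 and replicate 1. All mitochondrial frames together took 0.627% and 0.557% of the counts in glucose and 0.251% in mannose.

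**Figure D3:**
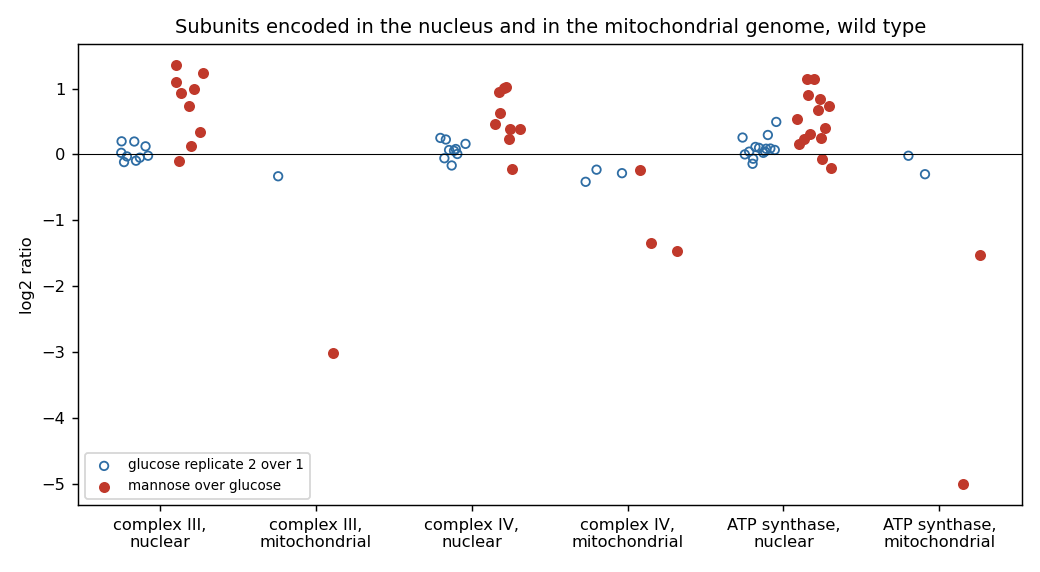
Log2 ratio of each subunit gene of complex III, complex IV and ATP synthase, split by nuclear or mitochondrial encoding, for mannose over glucose (filled) and glucose replicate 2 over replicate 1 (open); horizontal scatter within a column is arbitrary. Most nuclear subunits lie above 0 in mannose, and the mitochondrial ones lie below 0, down to −5.01 for ATP6.

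The mannose library also differed from both glucose libraries by base composition, which touches the mitochondrial values. Nuclear frames of up to 34% GC (98 frames) had a median change of −0.78, those of 34% to 38% −0.16, of 38% to 42% 0.03, of 42% to 46% 0.17 and those above 46% (447 frames) 0.30. The same trend between the glucose replicates was far flatter, from −0.12 to 0.09. Frames under 300 bases had a median of −0.19 (239 frames) and those above 2400 bases −0.08 (898 frames). Mitochondrial frames hold 10.4% to 33.3% GC, and the 67 nuclear frames within that limit of 33.3% had a median of −0.87. The part of base composition in the mitochondrial fall was not tested. With the trends on GC content and length taken out, which could be done for nuclear frames of the reference only, 1159 (19.9%) of 5828 were called higher and 896 (15.4%) lower. The nuclear respiratory groups kept their direction: 9 of 9 complex III genes, 8 of 9 complex IV genes, 15 of 17 ATP synthase genes and 13 of 15 tricarboxylic acid cycle genes were called higher and 0 lower.

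**Figure D4:**
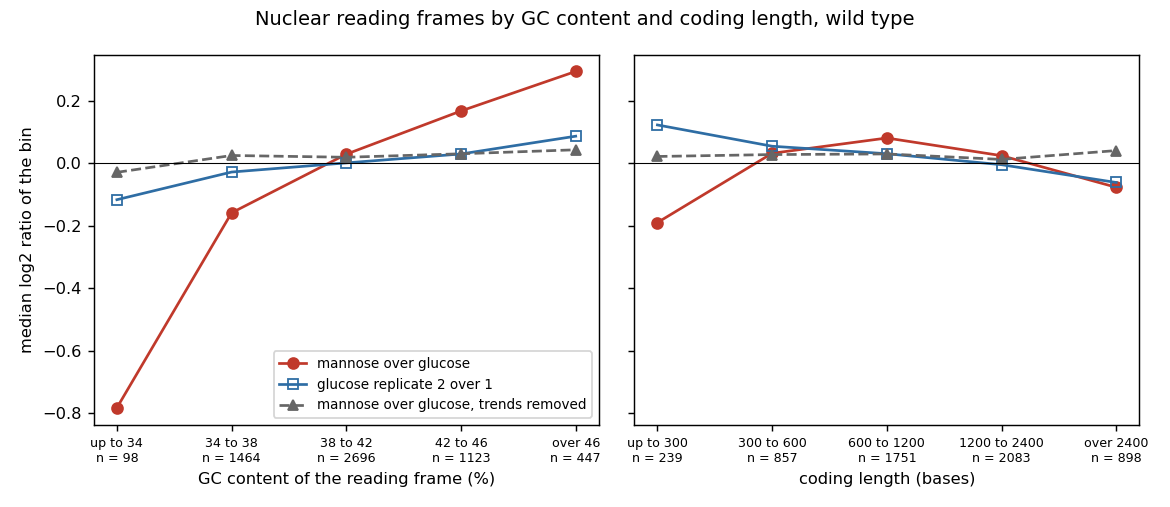
Median log2 ratio of nuclear reading frames in bins of GC content (left, %) and coding length (right, bases), for mannose over glucose, for glucose replicate 2 over replicate 1, and for mannose over glucose after the trends were removed. The mannose median runs from −0.78 in the lowest GC bin to 0.30 in the highest, the glucose pair from −0.12 to 0.09.

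The phosphate regulon fell. Yeast induces these genes through the activator Pho4 when phosphate is short. Of 17 members 11 were called lower and 0 higher, with a median of −0.91, and 7 lay at least 2-fold below both glucose libraries. PHO84, the high-affinity phosphate transporter (named after its values were seen), stood at 286 and 320 CPM in glucose and 114 CPM in mannose (−1.41 ± 0.09). The acid phosphatase genes PHO11 and PHO12, near-identical copies whose separate values are uncertain, fell from 65.8 and 75.2 CPM to 25.2 CPM and from 70.3 and 80.2 CPM to 25.5 CPM (−1.49 ± 0.11 and −1.56 ± 0.11). PHO5, the main repressible acid phosphatase, fell by 1.07 on the log2 scale. SPL2, a regulator of low-affinity phosphate transport, had the steepest change of the group, from 7.0 and 8.83 CPM to 1.55 CPM (−2.35 ± 0.24; edgeR, adjusted p = 6.38e-14). VTC4, which makes vacuolar polyphosphate, fell from 247 and 253 CPM to 164 CPM (−0.61 ± 0.09). PHO81, an inhibitor of the Pho80 and Pho85 kinase, fell by 0.91 on the log2 scale, and by 0.58 without the composition and length trends. PHO5, VTC4 and PHO81 were named after their values were seen. Of the 5 regulators 2 were called higher and 1 lower, beside 20.5% and 16.9% of all frames. PHO4 stood at 0.25 ± 0.10 and the kinase gene PHO85 at 0.39 ± 0.10, both called higher, but at −0.19 and 0.20 and not called without the composition and length trends. PHO86 was called lower at −0.33 ± 0.10 (−0.40 without the trends), and PHO80 and PHO2 were not called. With those trends removed 12 of the 17 regulon genes were called lower and 1 higher, with a median of −0.69.

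The motif CACGTG, bound by Pho4 and also by Cbf1, was found in 5 of the 17 regulon promoters, in 2.75% of all tested promoters, in 2.20% of genes called lower by at least 2-fold and in 0 of 119 called higher by at least 2-fold. It was also found in 3 of the 9 complex III promoters, a group in which 7 genes were called higher. SPL2 and VTC4 are shown because each holds it more than once, in capitals below. The lines give bases 250 to 81 before the start codon on the gene's strand (R64), SPL2 at chrVIII:375181-375350 and VTC4 at chrX:413480-413649, both minus strand.

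SPL2: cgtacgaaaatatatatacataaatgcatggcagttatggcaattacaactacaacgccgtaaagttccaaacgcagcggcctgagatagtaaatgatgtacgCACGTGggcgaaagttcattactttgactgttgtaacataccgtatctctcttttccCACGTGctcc

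VTC4: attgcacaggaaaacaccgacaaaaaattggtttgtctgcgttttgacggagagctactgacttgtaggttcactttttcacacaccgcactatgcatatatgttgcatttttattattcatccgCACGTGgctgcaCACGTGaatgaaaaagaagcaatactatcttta

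In SPL2 the motifs begin 147 and 90 bases before the start codon, with another at 31 bases outside the stretch shown, and in VTC4 125 and 113 bases before it.

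The study concerns free glycans from O-mannosylated proteins, and the genes of that route stood mostly level between the sugars. Of the 7 protein O-mannosyltransferase genes, PMT7 was called lower (28.3, 31.1 and 19.4 CPM; −0.61 ± 0.12, and −0.37 without the composition and length trends) and 0 were called higher. The main transferases PMT1, PMT2 and PMT4 stood at 455, 460 and 419 CPM, at 507, 531 and 551 CPM, and at 335, 329 and 338 CPM. None was called, and for PMT4 and PMT2 mannose lay above both glucose libraries while for PMT1 it lay below. For PMT1 the change was −0.13 ± 0.09 (edgeR, adjusted p = 0.306), for PMT2 0.09 ± 0.10 (adjusted p = 0.508) and for PMT4 0.02 ± 0.09 (adjusted p = 0.855). Without the trends PMT1 was called lower (−0.26, adjusted p = 0.0105 in edgeR), so that 2 of the 7 were, while PMT2 and PMT4 turned to −0.16 and −0.0027 and were not called. Of 13 genes that lengthen O-linked chains 1 was called, KTR7, a mannosyltransferase (0.33 ± 0.09).

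The rest of protein glycosylation differed between lists, and the counts below stand beside 20.5% of all frames called higher and 16.9% called lower. MNN4, which promotes mannosyl phosphate on N-glycans, rose from 26.5 and 23.3 CPM to 49.8 CPM (1.00 ± 0.10), and ANP1 by 0.30 (0.02 and not called without the composition and length trends), as 2 of 11 genes of the N-glycan outer chain. Of 9 oligosaccharyltransferase genes 4 were called lower and 0 higher, with the same counts without the composition and length trends. The small subunits OST5 (20.3, 22 and 9.16 CPM; −1.21 ± 0.14) and OST2 (19.0, 19.4 and 8.96 CPM; −1.10 ± 0.14) fell most, at −0.88 and −0.56 without the composition and length trends, while the catalytic gene STT3, named after its values were seen, stood at 460, 465 and 527 CPM and was not called (0.19 ± 0.09, adjusted p = 0.107; −0.095 without the trends). Among 7 genes for mannosidases and free glycan handling 2 were called higher, near the share of all frames, and 1 without the composition and length trends. AMS1, the vacuolar alpha-mannosidase that also acts on free glycans in the cytosol, stood at 12.9, 12.8 and 23.9 CPM (0.89 ± 0.11; edgeR, adjusted p = 3.97e-11). DCW1 was called at 0.33 ± 0.09 but not without the trends (0.20, adjusted p = 0.0602 in edgeR), and PNG1, the cytosolic peptide N-glycanase, was not called (8.09, 7.36 and 9.24 CPM; adjusted p = 0.181). Vacuolar proteases rose in 6 of 8 cases and fell in 0, with APE1 at 0.93, PEP4 at 0.76 and PRB1 at 0.72. Without the composition and length trends 6 were still called higher, but the median went from 0.67 to 0.38 and PRB1 stood at 0.40. Of 13 genes for ER-associated degradation 2 were called lower, near the share of all frames, and 0 higher.

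Cell wall mannoproteins were mixed, with 11 of 27 called higher and 4 lower, and with 8 and 9 once the composition and length trends were removed. The shares of all frames were 20.5% and 16.9%, and 19.9% and 15.4% with the trends removed. CWP1, a mannoprotein of the wall (YKL096W, chromosome XI, 261132 to 261851), stood at 51.3 and 52.2 CPM in glucose and 149 CPM in mannose (1.52 ± 0.10; edgeR, adjusted p = 3.72e-25). TIR4 and SPI1 rose by 0.91 and 0.89, and FLO9 and FLO1, flocculins with long repeats, fell by 0.47 and 0.40, and stood at −0.83 and −0.85 without those trends. Of 26 wall glucan and chitin enzymes 6 were called higher and 9 lower, beside 20.5% and 16.9% of all frames. The largest called rises were GSC2 at 0.68, BGL2 at 0.57 and SCW4 at 0.55. Without the composition and length trends they stood at 0.81, 0.43 and 0.31. The enzymes of daughter cell separation were among the lower: DSE4 stood at 296, 324 and 185 CPM (−0.75 ± 0.09), EGT2 at 515, 531 and 332 CPM (−0.66 ± 0.09) and DSE2 at 151, 160 and 104 CPM (−0.58 ± 0.09). The levels of all 3 in mannose lay below both glucose libraries.

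Growth and biosynthesis genes showed small shifts. Of 137 cytosolic ribosomal protein genes 35 were called higher and 17 lower, with a median of 0.06 against 0.02 for all frames, beside 20.5% and 16.9% of all frames; without the composition and length trends 18 were called higher and 20 lower (median −0.0078). Many are pairs of near-identical copies. Of 30 ribosome biogenesis genes 3 were called higher and 9 lower. Mitochondrial ribosomal proteins of the MRPL series rose in 18 of 34 cases and fell in 0 (median 0.31). Among 18 genes for lysine and aromatic amino acid synthesis 8 were called lower and 0 higher (13 and 0 without the trends), and among 12 for arginine and ornithine 7 lower and 1 higher. Of 20 purine genes 8 were called lower, led by ADE17 (551, 534 and 315 CPM; −0.79 ± 0.10), and 3 higher (11 and 1 without the trends). The proteasome had 12 of 32 genes called lower and 3 higher (13 and 0 without the trends). GCN4, the activator of amino acid synthesis genes, was called higher at 727, 680 and 1063 CPM (0.60 ± 0.10). DUR12, a gene of urea breakdown, fell from 268 and 244 CPM to 119 CPM (−1.11 ± 0.09).

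Genes of mating showed falls in part of the group. Of 7 MATa genes 4 were called lower and 1 higher, with STE2 at −0.66 ± 0.09 and the pheromone gene MFA2 at 18.8, 23.2 and 9.35 CPM (−1.17 ± 0.14). STE18, a G protein subunit of the pheromone response, fell from 8.57 and 9.19 CPM to 3.39 CPM (−1.39 ± 0.19, and −0.86 without the composition and length trends). Very short frames were common among the largest falls. TOM7, of the mitochondrial import channel, has 183 coding bases and went from 13.5 and 14.0 CPM to 1.99 CPM (−2.78 ± 0.19, and −2.06 without the composition and length trends). PMP2, a small proteolipid linked to the plasma membrane proton pump, has 132 coding bases and went from 16.2 and 18.8 CPM to 3.78 CPM (−2.21 ± 0.17, and −1.56 without those trends). BSC1 fell from 13.6 and 10.9 CPM to 3.34 CPM (−1.87 ± 0.15). Of the 125 frames at least 2-fold below both glucose libraries 51 were shorter than 600 bases, against 27 of the 128 above and 1086 of all 6146 tested, and 17 were mitochondrial. Frames not in the reference had no length and could not count as short. These were 32 of the 125, 21 of the 128 and 300 of the 6146.

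**Figure D5:**
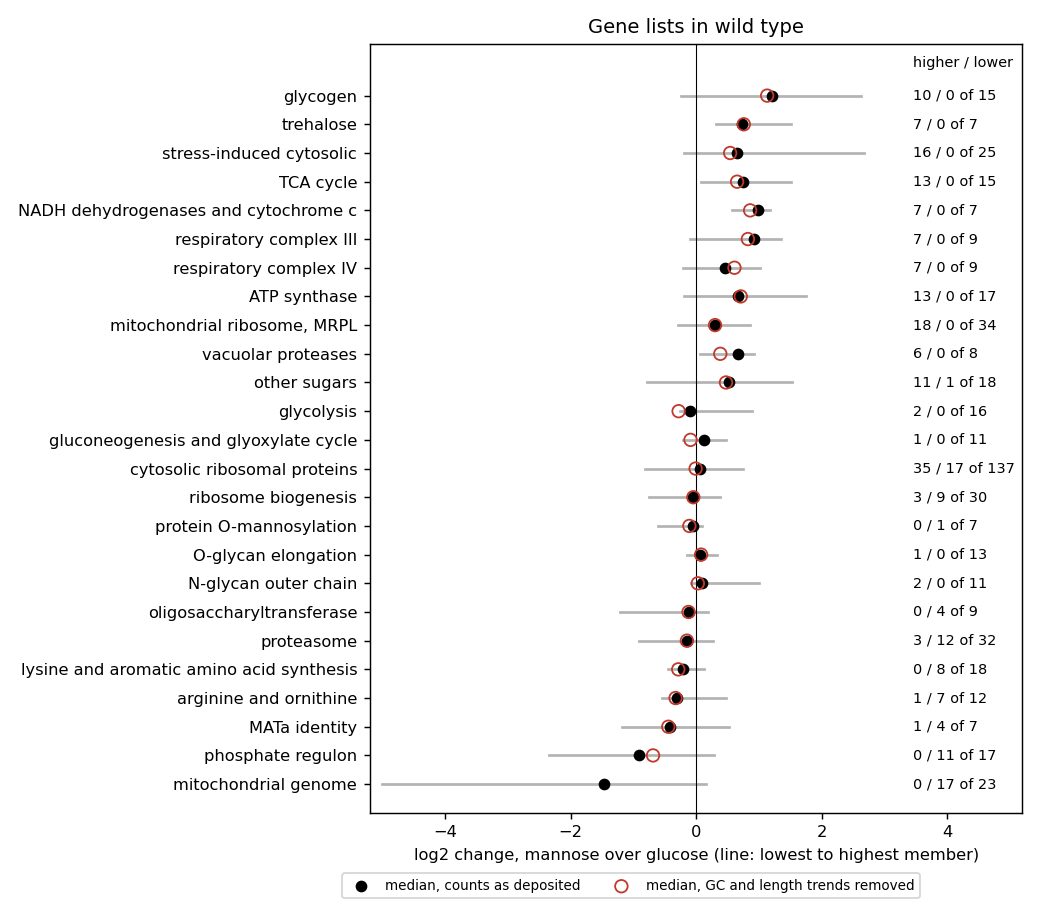
Median log2 change (filled, counts as deposited; open, after removal of the GC content and length trends) and the range of members (line) for 25 gene lists, with the members called higher and lower out of those tested at the right. Storage, stress and nuclear respiratory lists lie to the right of 0, glycosylation lists near 0, and the phosphate regulon (−0.91) and the mitochondrial genome (−1.46) to the left.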

How the data were processed

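The 6 libraries are stranded sequencing libraries of yeast RNA depleted of ribosomal RNA. What the authors deposited for each is 1 raw count per reading frame, with no normalization. The submitters' processing notes name TopHat2 2.0.9, Bowtie2 2.3.4.2, CASAVA 1.8 and the genome build sacCer3, without saying which step used what. How reads were counted (program, annotation, strand, multiple matches) was not given in the sources used here. Strand is therefore unknown in the counts, and 231 reference frames overlap another. Of 6696 frames 6007 were found in the R64 reference; 305 lie in families of near-identical copies (95% identical across 80% of the frame in BLAST 2.17.0), which took 33.2% to 35.2% of the counts.

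The software was R 4.3.3 with edgeR 4.0.16. Low counts were filtered by filterByExpr, which kept 6146 frames and left out 550, and libraries were scaled by TMM. All 6 libraries entered the fit, each group with its own mean. The glucose pairs alone supply the 2 residual degrees of freedom, beside 86.7 prior degrees of freedom, and the common biological coefficient of variation (BCV) was 5.54%. A frame was called when its quasi-likelihood p, adjusted by Benjamini-Hochberg over all frames tested, was under 0.05. The SE was computed by dividing the absolute log2 change by the root of F. The fit was also run on simulated counts, drawn with the same fitted spread for all libraries. That run could not test whether the mannose library varies like the glucose pairs, because it took this for granted. Folds against both glucose libraries use a prior count of 0.5. Trends on base composition and length were taken out as loess offsets (span 0.3) in an alternative fit of 5828 nuclear reference frames. Other alternatives were DESeq2 1.42.0, other scalings, no filter, wild-type libraries alone, a fixed BCV of 0.2 and each glucose replicate left out.

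The comparison, the 73 gene lists and the tests were chosen with earlier results of these data known. Named by rule were the 15 largest rises and 15 largest falls among called genes with a standard symbol, at least 10 CPM in the higher group and mannose outside the glucose pair, then in each list the 3 largest called rises and falls, all members of lists with up to 8, and the strain markers. Other genes are said to be named after their values were seen. Members left out by the filter were ATP8, MF(ALPHA)2, LEU2, MET17, URA3, SPS2, CUP1-1, CUP1-2 and 4 unnamed mitochondrial frames.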

Additional observations from a re-analysis of the deposited data

Results flagged for a closer look

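The mannose change differed between wild type and the cyc8 deletion for 3943 of 6146 frames (64.2%) in edgeR's quasi-likelihood test of the interaction at an adjusted p under 0.05, with 1826 higher and 2117 lower in the deletion. Each mannose group is 1 library, and 4746 frames (77.2%) were called for mannose in the deletion. Of the 128 frames at least 2-fold above both glucose libraries in wild type 80 differed, and of the 125 below 63.

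Of 5 genes with large wild-type rises, HXT7, HXT6 and MTH1 were not called in the deletion, and HXK1 and HSP12 rose there. HXT7 stood at 2526 and 2535 CPM in glucose and 2271 CPM in mannose in the deletion, and the difference of its change there from that in wild type was −3.41 (adjusted p = 8.73e-37, edgeR interaction). The differences for HXT6, MTH1 and HXK1 were −3.27, −2.70 and −2.12. For HSP12 the difference was −0.57 (adjusted p = 0.000731). In the deletion the glucose level of each of these 5 genes was already above the wild-type mannose level.

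Of 5 mitochondrial frames with large falls in wild type none was called lower in the deletion, where 4 were called higher and BI3 was not called. ATP6 stood at 40.1 and 16.4 CPM in glucose and 69.9 CPM in mannose there, a change 6.34 above that in wild type (adjusted p = 1.77e-37, edgeR interaction). The differences were 4.81 for BI3, 5.74 for BI2, 3.88 for COB and 3.68 for BI4, 4 frames that overlap.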

How the results depend on the processing

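No paired analysis was possible because mannose is 1 library with no replicate number, so the groups share fewer than 2 numbers. The limit of these data is that 1 library: every called count rests on the spread of the glucose pairs. With a fixed BCV of 0.2 the called frames fell from 2300 to 149 (84 higher, 65 lower), and those of the interaction from 3943 to 818 (554 higher, 264 lower in the deletion). Leaving out a glucose replicate gave 1516 to 1520 (837 to 847 higher, 673 to 679 lower), of which 1499 and 1492 were shared with the full fit. DESeq2's Wald test gave 1533 (611 lower), of which 1526 were shared, with 239 adjusted p-values not given. DESeq2 size factors (2329), upper-quartile factors (2299), no filter on low counts (2320) and wild-type libraries alone (2580) changed the count little. All 30 of the largest named rises and falls stayed called at the fixed BCV and in DESeq2. They were chosen for their size in these same data, and every fit uses the same mannose library, so this is no separate support. Smaller named changes, such as those of PMI40, MIG1, SNF3 and AMS1, were not called at the fixed BCV.

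Without the GC content and length trends 2055 frames were called, 1551 of them shared with the fit of the counts as deposited, and of the named genes called in either fit 5 changed sign: YAT1 (−0.39, adjusted p = 0.00107 in edgeR), PHO4 (−0.19), NCP1 (−0.090), PDI1 (−0.022) and NOP1 (−0.019). Genes called in neither fit, such as PMT2, STT3 and SIP4, changed sign as well. The mannose library at least 1.5-fold, 3-fold or, above 10 CPM, 2-fold past both glucose libraries counted 424, 34 and 70 frames above and 355, 51 and 43 below; the limit of 10 CPM was chosen after seeing the data. Against a single glucose replicate 195 to 203 lay above. With the trends removed 92 lay above and 45 below. That fit leaves out mitochondrial frames and frames not in the reference. Among the 125 frames below, 14 were mitochondrial frames of the reference and 32 were not in the reference. The drop to 45 therefore also includes nuclear frames that were fitted.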

Other observations

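Retrotransposon transcripts were lower in mannose. Of 88 tested frames that the reference names as gag or gag-pol proteins, a set chosen after the values were seen, 83 were called lower and 2 higher, beside 16.9% and 20.5% of all frames (edgeR, Benjamini-Hochberg adjustment). Their median change was −0.87, against −0.03 between the glucose replicates, and −0.65 with the trends on base composition and length taken out, when 81 were called lower and 2 higher. Summed over the 88 frames, the level was 124878 and 117215 CPM in glucose and 70303 CPM in mannose. All 88 have near-identical copies and can share reads, so they are not separate measurements. The 2 called higher were YGR109W-B (26.6, 23.7 and 32.6 CPM) and YIL082W-A (24.3, 21.8 and 31.4 CPM).

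Smaller gene groups gave further values, and their counts stand beside 20.5% of all frames called higher and 16.9% called lower. Of 16 oxidative stress genes 8 were called higher and 2 lower: OYE3, an NADPH oxidoreductase, stood at 0.984, 1.20 and 3.91 CPM (1.82 ± 0.21), and the peroxiredoxin gene TSA2 at 6.39, 5.63 and 12.7 CPM (1.09 ± 0.14). Of 10 histone genes 6 were called higher and 0 lower, with HTA1 at 158, 148 and 299 CPM (0.97 ± 0.09). Of 10 glycerol genes 6 were called higher and 0 lower (5 and 1 without the composition and length trends), led by the mitochondrial dehydrogenase gene GUT2 at 52.3, 55.6 and 132 CPM (1.29 ± 0.10). ATG39, a receptor for autophagy of the nucleus, rose from 1.57 and 1.40 CPM to 6.29 CPM (2.09 ± 0.18), while 14 of 18 autophagy genes were not called. In the non-oxidative branch of the pentose phosphate pathway the minor isozymes NQM1 and TKL2 rose from 3.62 and 3.80 CPM to 9.45 CPM (1.35 ± 0.14) and from 1.62 and 1.62 CPM to 4.61 CPM (1.5 ± 0.19).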
